A study of Caenorhabditis elegans with 2 samples.

Results

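Binding of the GFP-tagged protein F37B4.10 was described here at 9 DNA replication genes of *Caenorhabditis elegans*: the replication protein A genes *rpa-2* and *rpa-1*, the sliding clamp gene *pcn-1*, and the helicase genes *mcm-2*, *mcm-3*, *mcm-4*, *mcm-5*, *mcm-6* and *mcm-7*. The genes were chosen by pathway around *rpa-2*, which was selected on its joint ranked signal in these data. The signals of the other members were also known when they were listed. All 9 were found among 19973 protein-coding genes of the nuclear chromosomes. For each, every peak was taken whose summit lies inside the gene or up to 1000 bp upstream of an annotated start. The signals and ranks below are therefore a description, with no test. All samples came from 1 group of whole young adult worms of strain OP374, collected at 61 h, after synchronisation as starved L1 larvae. The strain carries the integrated array wgIs374, with F37B4.10 fused to TY1, EGFP and 3xFLAG, together with unc-119(+) in an unc-119(tm4063) background. There were 2 biological replicates, precipitated with an antibody to GFP, and the labels describe no group without the tag.

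The 3 kinds of protein act at successive steps of chromosome duplication. The MCM proteins form the ring-shaped helicase that is loaded at origins and unwinds the parental strands. Replication protein A coats the single strands that unwinding exposes, with *rpa-1* encoding its large subunit and *rpa-2* its middle subunit. PCNA, the product of *pcn-1*, encircles the new duplex and tethers polymerases and repair enzymes to it. In young adult worms, S phase takes place mainly in the germ line, where mitotic cells renew the gonad. Replication genes in many animals carry binding sites of E2F-type factors in their promoters.

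The deposited data are peak lists, each made from one replicate or from both together. A ranked list holds candidate peaks, including weak ones, with the authors' signal value for each peak and an irreproducible discovery rate (IDR). The IDR is an estimated error rate that is low where peaks rank high and alike in 2 inputs. Thresholded lists hold the few peaks that passed the authors' limit. The joint ranked list has 115634 peaks, about 1.15 per kb of genome, so that 91.1% of protein-coding genes hold at least one summit within the window used here. The replicate 1 and replicate 2 ranked lists have 58046 and 63045 peaks. The conservative joint list has 843 peaks and the other joint thresholded list 947, and the thresholded lists of replicate 1 and replicate 2 have 81 and 99. The scale of the signal is not given in the sources used here, and read depths are unknown, so values are compared within a list only. At the *F37B4.10* gene itself, of which the transgene adds copies, the strongest joint ranked peak had a signal of 135 and rank 71, and 3 summits are in the conservative list.

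Of the 9 replication genes, *rpa-2* and *pcn-1* held a summit in the conservative joint list, against 3.43% of all protein-coding genes. The other 7 held none there. The peak upstream of *rpa-2* was the strongest of all 843 conservative peaks, and that upstream of *pcn-1* ranked 61 among them. Both genes also held a summit in the other joint thresholded list (3.81% of protein-coding genes), in that of replicate 1 (0.345%) and in that of replicate 2 (0.386%). *rpa-1* held a summit in the other joint thresholded list alone, at rank 870 of 947. No *mcm* gene held one in any of the 4 thresholded lists. In the joint ranked list, 6 of the 9 genes (*rpa-2*, *pcn-1*, *rpa-1*, *mcm-2*, *mcm-3* and *mcm-4*) had a summit with an IDR of at most 0.05, against 15.6% of all protein-coding genes. The peak caller's own false discovery value, converted from its deposited −log10, was 0.04 for this peak at *rpa-2* and 0.187 at *pcn-1*. It was high at the other 4: 0.775 at *rpa-1*, 0.819 at *mcm-3*, 0.858 at *mcm-2* and 0.905 at *mcm-4*. Since the genes were listed with these signals known, nothing is read from the difference between their counts and the shares of all genes.

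**Figure D1:**
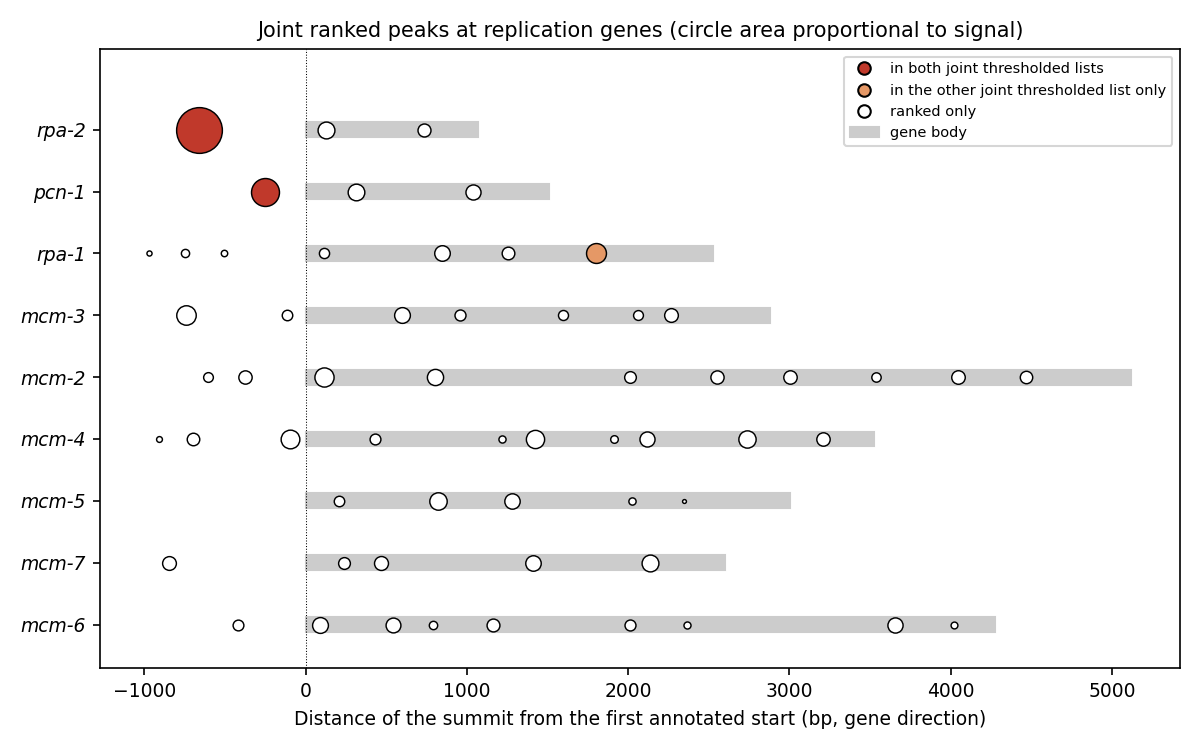
Joint ranked peaks at the 9 replication genes, by distance of the summit from the first annotated start in base pairs along the gene's direction (horizontal axis); each row is a gene, grey bars are gene bodies and circle area is proportional to the authors' signal. The circles upstream of rpa-2 (signal 321) and pcn-1 (120.0) are the 2 in both joint thresholded lists, rpa-1 has 1 in the other joint list, and all other circles are ranked only.

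Together the 9 genes held 59 joint ranked summits, between 3 (*rpa-2* and *pcn-1*) and 10 (*mcm-2* and *mcm-4*) per gene. That is 1.19 to 2.21 summits per kb of the window searched, beside 1.15 per kb over the genome. Coding sequence held 33 of these summits, introns 12 and upstream sequence 14. Their median signal was 26.8, and the median of all joint ranked peaks was 23.6. The map of peaks by distance shows many small circles spread over the *mcm* gene bodies and a single large one at *rpa-2* and at *pcn-1*.

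The gene for the middle RPA subunit, *rpa-2* (WBGene00019767, ce11 chrI:4770292-4771358, plus strand), had the highest signal of the set. Its strongest joint ranked peak, chrI:4769592-4769720, has its summit 658 bp upstream of the start, in sequence that belongs to no annotated gene. The signal was 321, rank 5 of 115634, with an IDR of 2.36e-05, and the list's 2 inputs, which it does not name, had signals of 150 and 174. No other protein-coding gene had a stronger peak in its window. The 4 ranked peaks of higher signal are in neither joint thresholded list. The peak is 129 bp wide, where the usual width in the joint lists is 276 bp, and it is 1 of 8 conservative peaks that are narrower than usual.

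Replicate 1 gave this peak a signal of 150 and rank 7, and replicate 2 gave it 174 and rank 7, with summits 19 bp apart. These signals equal those of the 2 unnamed inputs, so they are not a separate measurement. It ranked first in the thresholded list of each replicate and in both joint thresholded lists. The remaining 2 ranked peaks at *rpa-2* were ordinary. One lies in an intron 129 bp after the start, with a signal of 43.6 and rank 11894. The other lies in coding sequence 735 bp after the start, with a signal of 25.8 and rank 50702. The strongest peak thus had 7.38 times the signal of the second. No other protein-coding gene starts within 1000 bp of the summit, and the nearest such start, of *M04F3.4*, is 3421 bp away.

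The *rpa-2* peak lies in repeated sequence. A search of the genome with its 129 bp (blastn, E at most 0.001, at least 50% of the query aligned, limits chosen after seeing the data) found 17 other places, with 73.3% to 99.1% identity. Of these, 16 were overlapped by a joint ranked peak and 7 by a conservative peak, whereas the 843 conservative peaks cover 0.231% of the genome. The thresholded list of replicate 1 overlapped 5 of the copies and that of replicate 2 overlapped 6. These counts are of whole copies, whereas 0.231% is a share of bases, so the measures are unlike. The share of arbitrary intervals of this size that each list overlaps was not computed. Together with *rpa-2* itself, copies of this sequence were thus under 5 of the 25 conservative peaks of highest signal, at ranks 1, 5, 6, 9 and 18. Further copies were under the peaks ranked 37, 112 and 615.

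Signal varied widely among close and less similar copies alike. The 7 copies with at least 90% identity to the *rpa-2* interval had joint ranked signals between 18.4 and 255 in the 6 that had a peak (median 55.7), and 2 of the 7 were in the conservative list. The 10 copies under 90% had signals between 10.2 and 242 (median 74.4), and 5 of the 10 were in that list. The closest copy, chrIV:4725551-4725666, is 99.1% identical over 116 aligned bases and lies 462 bp from a start of *K08F11.1*. Its signal was 255, and replicate 1 and replicate 2 placed it at ranks 19 and 15. Among the less similar copies, 5 are identical to each other over 99 bases and had joint ranked signals of 26.4, 49.99, 144, 214 and 242. Identical sequence was therefore listed with both low and high signals. How reads that match several places were handled is not given in the sources used here, and the part of repeated sequence in the *rpa-2* signal was not tested.

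**Figure D2:**
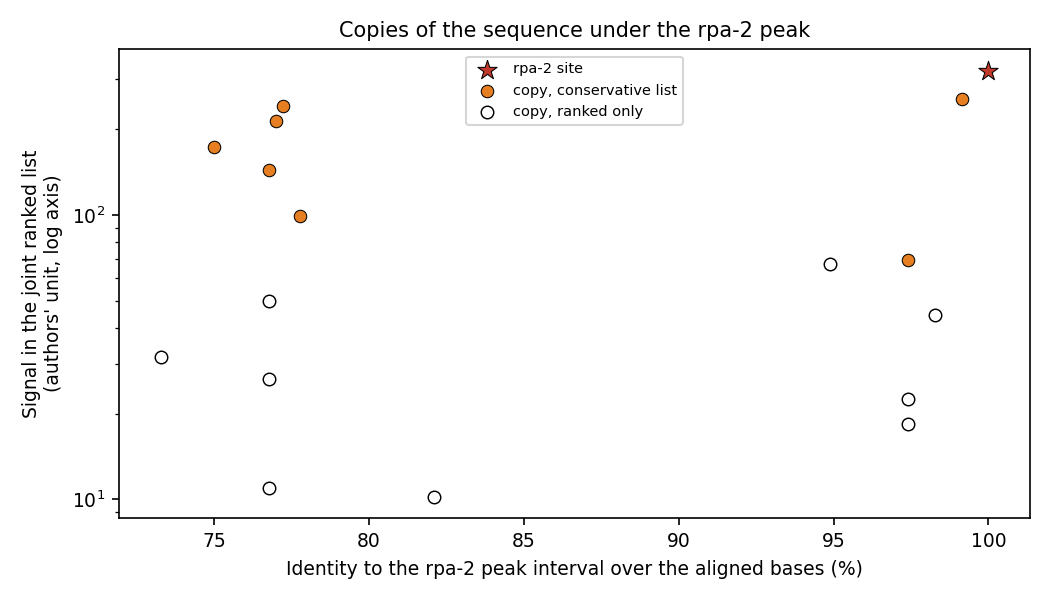
Joint ranked signal (vertical log axis, authors' unit) of the rpa-2 peak and of the 16 copies of its sequence that overlap a joint ranked peak, by identity to the rpa-2 interval in percent (horizontal axis). Filled circles are the 7 copies in the conservative list and open circles are ranked only; signals run from 18.4 to 255 among the copies of at least 90% identity and from 10.2 to 242 among the others.

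Repeated sequence is common under the thresholded peaks. Of the 843 conservative summits, 340 (40.3%) had a copy elsewhere of the 50 bp to each side of the summit, by the same limits, and 241 (28.6%) had one of at least 90% identity. Of every 100th joint ranked summit, taken by rank, 321 of 1157 (27.7%) had a copy and 176 (15.2%) had one of at least 90%. Among the strongest peaks of the 9 replication genes, the window at *rpa-2* had 16 copies, that at *mcm-7* had 1, and those at the other 7 genes, *pcn-1* included, had none.

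The PCNA gene *pcn-1* (WBGene00003955, ce11 chrIV:4047937-4049448, minus strand) had the second highest signal of the set. Its strongest peak, chrIV:4049563-4049838, has its summit 253 bp upstream of the single annotated start. The signal was 120.0, rank 93 of 115634, with an IDR of 0.000359, and the unnamed inputs had signals of 58.3 and 57.6. Replicate 1 gave the peak the same signal of 58.3 and rank 95, and replicate 2 gave it the same 57.6 and rank 164, with summits 21 bp apart. In the short thresholded lists it stood near the low end, at rank 58 of 81 in replicate 1 and 90 of 99 in replicate 2. Only 0.25% of protein-coding genes had a strongest peak of this signal or more.

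The other ranked peaks at *pcn-1* both lie in coding sequence, 314 and 1040 bp after the start, with signals of 42.6 and 34.9. The upstream peak had 2.82 times the signal of the stronger of them. A start of *wrt-5*, a Hedgehog-related gene, lies 873 bp from the summit, so the peak is also within 1000 bp of that gene. The peak sequence is shown in full, since it is the one strong peak of the set without a copy elsewhere. It is written on the minus strand, the strand of *pcn-1*, with the E2F-type sequence GCGCGAAA in capitals.
pcn-1 peak: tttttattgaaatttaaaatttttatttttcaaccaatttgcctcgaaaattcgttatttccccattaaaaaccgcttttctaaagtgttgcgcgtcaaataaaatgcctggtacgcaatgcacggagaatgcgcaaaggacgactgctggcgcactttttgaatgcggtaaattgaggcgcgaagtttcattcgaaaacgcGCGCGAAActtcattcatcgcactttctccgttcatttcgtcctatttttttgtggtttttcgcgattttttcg
The capitals occupy chrIV:4049629-4049636, with their centre 69 bp from the summit and 184 bp upstream of the start. They are thus more than 50 bp from the summit.

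The gene for the large RPA subunit, *rpa-1* (WBGene00017546, ce11 chrII:7664582-7667110, plus strand), differed from *rpa-2* in where its strongest peak lies and in how far the replicates agreed. The peak, chrII:7666248-7666523, has its summit in coding sequence, 1804 bp after the start and 881 bp from a start of *lir-2*, a zinc finger gene. Its joint ranked signal was 60.8, rank 1979, with an IDR of 0.0168. Replicate 1 gave it a signal of 24.0 and rank 8460, and replicate 2 gave it 42.5 and rank 779. Replicate 1 placed its own strongest *rpa-1* peak 851 bp after the start, with a signal of 27.6. The 3 upstream summits of *rpa-1* had signals of 10.4, 6.34 and 4.02, so its promoter held no peak near the level of that at *rpa-2*. The sequence around the summit is shown because it is the only coding-sequence peak of the set in a thresholded list; the capital marks the summit at chrII:7666386, plus strand.
rpa-1 summit: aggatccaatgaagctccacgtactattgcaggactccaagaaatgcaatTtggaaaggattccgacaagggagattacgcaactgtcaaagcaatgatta
None of the E2F-type sequences searched, GCGCGAAA and GCGGGAAA, occurs in this window.

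The 6 helicase genes had strongest joint ranked peaks between 38.4 and 58.2 in signal, with a median of 50.1. Only 5% of the conservative peaks had a signal under 57.2, so that *mcm-3* alone reached above that level, and its peak is in neither joint thresholded list.

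*mcm-3* (ce11 chrV:15056719-15059599, minus strand) had a signal of 58.2 and rank 2614, with an IDR of 0.0294. Its summit is 741 bp upstream of the start and inside the neighbouring gene *C25D7.15*, 532 bp from that gene's start. Replicate 1 gave this peak 25.7 and rank 6238, and replicate 2 gave it 31.3 and rank 5352. These were the closest ranks of any *mcm* gene.

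*mcm-2* (ce11 chrII:12001509-12006625, minus strand) had a signal of 56.4 and rank 3145, with an IDR of 0.0416. The summit lies in coding sequence, 96 bp after a start. Replicate 1 gave this peak 25.4 and rank 6565, and replicate 2 gave it 28.2 and rank 8920. The second strongest of its 10 peaks, also in coding sequence, had 40.4.

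*mcm-4* (ce11 chrI:2318291-2321817, minus strand) had 2 peaks of similar signal. One, 95 bp upstream of a start and 393 bp from a start of *Y39G10AR.32*, had a signal of 53.7, rank 4237 and an IDR of 0.0523. The other, 1425 bp after the start in coding sequence, had 51.2, rank 5555 and a lower IDR of 0.0289. Replicate 1 gave the upstream peak 22.8 and rank 10453, and replicate 2 gave it 28.8 and rank 8137. Neither replicate had its strongest *mcm-4* peak there.

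The other 3 helicase genes were near the level of a usual gene. *mcm-5* had 46.5, rank 8857, in coding sequence 823 bp after the start, with 16.8 in replicate 1 and 26.1 in replicate 2. *mcm-7* had 43.4, rank 12057, in an intron 2135 bp after the start, with 14.7 in replicate 1 and 29.0 in replicate 2, where the summits are 132 bp apart. *mcm-6* had 38.4, rank 19359, in coding sequence 90 bp after the start, with 21.6 in replicate 1 and no overlapping ranked peak in replicate 2. The joint list gives this *mcm-6* peak signals of 21.6 and 17.6 in its unnamed inputs. The IDR of these 3 peaks was 0.126, 0.149 and 0.167. Most of the remaining *mcm* peaks were weaker still, the weakest being one in *mcm-5* coding sequence with a signal of 2.29, rank 115208.

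**Figure D3:**
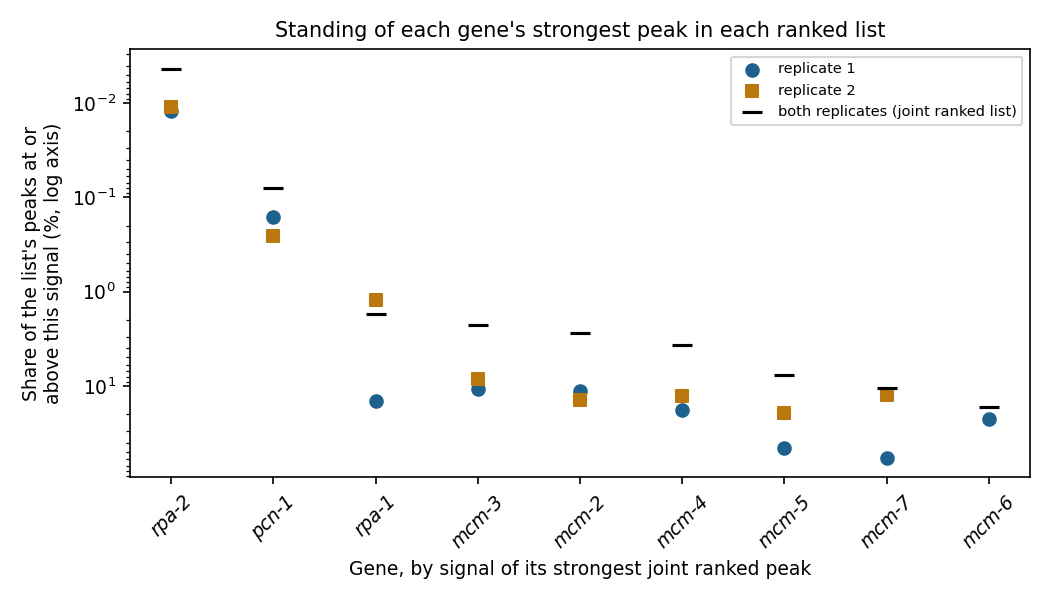
Share of each ranked list's peaks with a signal at or above the gene's peak, in percent on an inverted log axis, for the strongest joint ranked peak of each gene (dash) and for the overlapping peak of replicate 1 (circle) and replicate 2 (square). rpa-2 stands at 0.0121% and 0.0111% in replicates 1 and 2 and pcn-1 at 0.164% and 0.26%, whereas the replicate values of the other genes are 1.24% or more; mcm-6 has no point for replicate 2.

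Both replicates placed *rpa-2* and then *pcn-1* above the other members, and the order below them was less clear. The joint signal on which *rpa-2* was selected draws on both replicates. Of the 9 strongest joint peaks, 8 overlapped a ranked peak of both replicates. The share of all joint ranked peaks that do so was not computed, so nothing is read from this count. The ranks of *rpa-2* (7 and 7) and of *pcn-1* (95 and 164, replicates 1 and 2) did not overlap those of any other member. The ranks of *rpa-1* (8460 and 779) enclosed those of *mcm-3* (6238 and 5352) and overlapped those of *mcm-2* (6565 and 8920), *mcm-4* (10453 and 8137) and *mcm-7* (33636 and 7835), so that the place of *rpa-1* in the order lies within the spread between replicates. *mcm-3* ranked above *mcm-2*, and *mcm-4* above *mcm-5*, in both. *mcm-2* and *mcm-4* also overlapped in rank, and the ranks of *mcm-7* overlapped those of *mcm-2* and *mcm-4* and enclosed those of *mcm-5* (26302 and 12227). When each replicate was allowed its own strongest peak per gene, the peaks overlapped at 4 of 9 members (*rpa-2*, *pcn-1*, *mcm-2* and *mcm-3*), and at 34.8% of the 14440 protein-coding genes with a ranked summit in both replicates. At *mcm-5*, for example, replicate 2 had its strongest peak 952 bp upstream of the start, with a signal of 33.5, where replicate 1 had its own 836 bp after it.

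Set beside all genes, *rpa-2* and *pcn-1* lay in the far upper tail and most other members in the upper part of the range. The strongest joint ranked peak had a median signal of 56.4 over the 9 members and of 40.0 over the 18202 protein-coding genes with a peak, whose quartiles were 31.3 and 49.3. All members but *mcm-6* were above that median. A strongest peak of the member's signal or more was found at 7.58% of protein-coding genes for *rpa-1*, at 9.98% for *mcm-3*, at 11.95% for *mcm-2* and at 15.5% for *mcm-4*. The shares were 28.5% for *mcm-5*, 36.1% for *mcm-7* and 49.9% for *mcm-6*. Gene length differs too, and a longer window can hold more summits: the members span 1067 bp (*rpa-2*) to 5117 bp (*mcm-2*), against a median of 2027 bp for protein-coding genes, and the part of length was not tested.

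**Figure D4:**
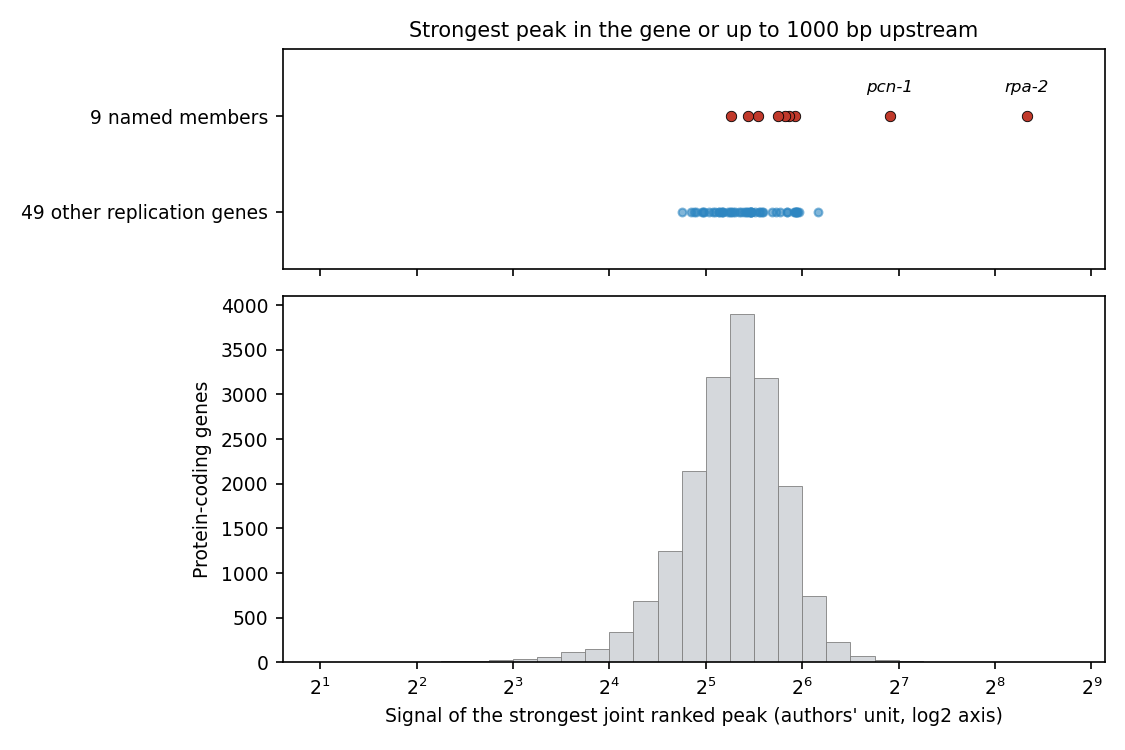
Signal of the strongest joint ranked peak in the gene or up to 1000 bp upstream (horizontal log2 axis, authors' unit), for the 9 members and 49 other replication genes (upper panel, 1 point per gene) and for all protein-coding genes with a peak (lower panel, number of genes per bin). Of the members, rpa-2 (321) and pcn-1 (120.0) stand apart from the other 7, which lie between 38.4 and 60.8; the other replication genes lie between 27.0 and 71.9.

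None of the other replication genes examined had a strongest peak as high as that of *rpa-2* or *pcn-1*. Of 55 further genes listed by role, 51 matched the annotation and 49 of these had a joint ranked peak. The 4 symbols that did not match were not examined. Their strongest peaks had a median of 43.0, between 27.0 and 71.9, with 29 of 49 above the median of all genes. In the conservative list 1 of the 51 held a summit, beside 3.43% of all protein-coding genes. In the other joint thresholded list 1 did, beside 3.81%. In the thresholded lists of replicate 1 and replicate 2 none did, beside 0.345% and 0.386%. Nothing is read from counts this small. The conservative one is *div-1*, which encodes a subunit of DNA polymerase alpha, with a signal of 71.9 in an intron 2413 bp after the start and an IDR of 0.00634. The other is *tim-1*, a fork protection gene, with a signal of 61.4 at a summit 304 bp upstream of the start that also lies in *sls-2.8*, a spliced leader RNA gene.

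The 8 highest of these genes came from several steps of replication. After *div-1* they were *cye-1* (cyclin E) with 62.6, *top-2* (a topoisomerase) with 61.6, *orc-1* (origin recognition) with 61.6, *tim-1* with 61.4, *pole-1* (DNA polymerase epsilon) with 61.2, *cdk-2* (the S-phase kinase) with 60.8 and *cyd-1* (cyclin D) with 60.4. The IDR was 0.103 at *cye-1*, 0.0881 at *top-2* and 0.0528 at *cdk-2*, and from 0.0124 to 0.0340 at the others after *div-1*. The *cye-1* summit also lies in another annotated gene. Its window's strongest peak ranked 395 in replicate 1 and 32979 in replicate 2. By role, medians were 57.3 for 2 topoisomerase genes, 48.3 for 5 polymerase and primase genes, 45.6 for 8 S-phase regulators and 44.0 for 7 origin and licensing genes, counting genes with a joint ranked peak. The clamp loader genes, whose product opens PCNA onto DNA, had a median of 43.3 over 4 genes, the highest being *rfc-4* with 44.3. For 10 genes of helicase activation the median was 39.2. *rpa-4*, a relative of the RPA genes, had 31.7. *pcn-1*, with 120.0, was above each of the 4 genes examined of the clamp loader that handles its product. Since *pcn-1* was listed with its signal known, this is a description only. A further listed clamp loader gene did not match the annotation and was not examined.

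Most of the members, but not *rpa-1*, *mcm-2* and *mcm-5*, hold the same E2F-type sequence in a promoter. This sequence, GCGCGAAA, searched on both strands from 250 bp before to 50 bp after each start, occurs at 6 of 9 members: *rpa-2*, *pcn-1*, *mcm-3*, *mcm-4*, *mcm-6* and *mcm-7*. It occurs at 8 of the 51 other replication genes (15.7%) and at 295 of 19973 protein-coding genes (1.48%). The related GCGGGAAA occurs at 2 of 9 members (*rpa-1* and *mcm-6*), at 7 of 51 other replication genes (13.7%) and at 2.05% of protein-coding genes. A match of letters is a description and not a binding site.

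Stretches of 40 bases around the match are shown for 4 of these genes, to let the shared letters be compared; each is written on the strand that reads GCGCGAAA, in capitals.
pcn-1 (chrIV:4049613-4049652, minus strand): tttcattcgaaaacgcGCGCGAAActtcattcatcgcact
mcm-3 (chrV:15059720-15059759, minus strand): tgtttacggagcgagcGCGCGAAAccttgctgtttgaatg
mcm-6 (chrIII:9794104-9794143, minus strand): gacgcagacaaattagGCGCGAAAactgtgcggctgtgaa
mcm-7 (chrV:4347002-4347041, plus strand): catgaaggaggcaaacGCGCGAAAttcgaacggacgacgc
The matches lie 184 bp (*pcn-1*), 140 bp (*mcm-3*), 244 bp (*mcm-6*) and 145 bp (*mcm-7*) upstream of the start. Outside the shared letters the 4 stretches differ.

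At 3 of these 6 genes the match lies inside a joint ranked peak. At *pcn-1* and *mcm-4* that is the gene's strongest peak. At *mcm-3* it is a weak one, with a signal of 16.9 and rank 80405, whose summit is 26 bp from the match. Joint ranked peaks are dense, at about 1.15 per kb with a median width of 276 bp. The share of other places that lie inside one was not computed, so nothing is read from the count of 3. The distance from the match to the summit of the gene's strongest peak was 69 bp at *pcn-1*, 334 bp at *mcm-6*, 430 bp at *rpa-2*, 601 bp at *mcm-3* and 2280 bp at *mcm-7*. At *mcm-4* it was 32 bp, and this was the only member with GCGCGAAA within 50 bp of its strongest summit. The sequence occurs in 1.07% of such windows at conservative summits and in 0.469% at joint ranked summits. Over the 8 sequences searched, the 9 member windows held 9 pairs of window and sequence. TTTGAA occurred at *pcn-1*, *mcm-4*, *mcm-5* and *mcm-6*, against 11.0% of conservative and 23.6% of joint ranked windows. CCAAT occurred at *rpa-2*, *rpa-1* and *mcm-5*, against 19.1% of conservative and 21.3% of joint ranked windows. TTCGAA occurred at *mcm-4*, against 4.98% and 5.60% of these windows, and the other 4 sequences at no member. GC content within 50 bp of the summit was 49.5% at *rpa-2* and 50.5% at *pcn-1*, beside a median of 50.5% over conservative and 39.6% over joint ranked summits.

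By the 2 replicates' signals, the genes most like *rpa-2* were *rpl-3*, which encodes a ribosomal protein, *eel-1*, a ubiquitin ligase gene, and *rpl-20*, another ribosomal protein gene. Likeness is the distance between log2 signals of the strongest promoter peak in both replicates, over 7986 genes, and these 3 were at 0.23, 0.88 and 0.94. *rpl-3* had 129 in replicate 1 and 169 in replicate 2, next to 150 and 174 at *rpa-2*. The genes most like *pcn-1* were *sre-23*, *H41C03.3* and *F44A6.5*, at distances of 0.13, 0.17 and 0.17, with signals between 52.5 and 65.5. None of these 6 is a replication gene of the lists used here.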

How the data were processed

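The authors deposited peak lists in ce11 positions, without headers. Per the README files deposited with the samples, they derive from filtered alignments with a control. No source used here names the aligner, peak caller or IDR software. Each peak has the authors' signal, the caller's −log10 false discovery value as deposited and, in ranked lists, the deposited −log10 IDR, turned here into the IDR itself. The deposited joint ranked lists also hold, as a score for each of 2 inputs, that input's signal, made by the authors with no sample named. Ranks count peaks at or above a signal within one list. The number of replicates, 2, limits precision, and depth is unknown.

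Positions were compared with the WBcel235 sequence (all 6 nuclear chromosomes fit) from RefSeq, and with Ensembl release 115 genes. Sequence was searched with BLAST+ 2.17.0, and tables were made with Python 3.11.15 and pandas 2.3.3. Assignment of summits and motif search were tested on simulated data. The 9 members, gene lists, motifs and alternatives were chosen with earlier results of these data known. Genes named are the members, other replication genes with a thresholded summit or among the 8 of highest signal, protein-coding genes starting within 1000 bp of a thresholded member summit, the 3 genes most like *rpa-2* and *pcn-1*, and F37B4.10; other genes named were chosen after their values were seen. The control library and coverage were not analysed here.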

Additional observations from a re-analysis of the deposited data

How the results depend on the processing

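The count of 2 members with a conservative joint peak was 6 with an IDR of at most 0.05 in the joint ranked list and 1 with 500 bp upstream, where *rpa-2* is lost. It was also 1 without peaks whose summit sequence has a copy elsewhere, an alternative added after seeing the data, where *rpa-2* is lost again. In the other joint list it was 3. Promoters only, 2000 bp upstream, any base of the peak and the peaks above the median signal of the list each gave 2, as did the thresholded list of either replicate (lowest and highest 2). The count of 1 other replication gene, *div-1*, was 9 of 51 with an IDR of at most 0.05, beside 15.6% of all protein-coding genes. Nothing is read from that rise. The count was 0 for promoters only, 0 without peaks with a copy elsewhere, and 0 in the thresholded list of either replicate (lowest and highest 0). These 2 lists are shorter by construction. Of 8 strongest peaks found in both replicates, 6 remained with summits at most 50 bp apart and 7 with at least 50% overlap. The 9 pairs of window and sequence became 18 in windows as wide as a peak. The share of a ranked list at or above the member's strongest peak differed between the joint list and the shorter lists of single replicates. Such shifts do not by themselves measure disagreement between the replicates. In the list of replicate 1 the share moved from its joint value by at least the SD between replicates for 9 of 9 members. In that of replicate 2 it did so for 6, and this SD rests on 2 values. For *mcm-5* it was 45.3% in replicate 1, against 7.66% in the joint list, and for *mcm-2* it was 11.3% and 14.1% in replicates 1 and 2, against 2.72%. With promoters only it moved for 2 members, to 72.3% against 1.71% for *rpa-1* and to 35.3% against 10.4% for *mcm-7*, and *mcm-5* had no summit. In the other joint ranked list it moved for none. No paired analysis was possible because there is 1 group and no test between groups.

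Peak lists hold no coverage, so a gene without a peak has no value, and the signal has no stated scale. No untagged strain was compared. With 2 replicates the spread is a range only.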
